A study of Mus musculus with 4 samples.

Results

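Synovial endothelium, the cells that line blood and lymph vessels in the membrane of the joint, was described by single-cell RNA sequencing in mice with and without a human TNF transgene (hTNFtg). A barcode was a member if it held at least 500 UMIs (unique molecular identifiers, each counting 1 captured mRNA molecule) with at most 20% of them mitochondrial, and had no upper limit on detected genes. It also had to hold at least 4 UMIs summed over Pecam1, Cdh5, Kdr and Flt1, at least 1 of them from Cdh5 or Kdr, no UMI of the leukocyte gene Ptprc and at most 5 UMIs of the fibroblast collagen genes Col1a1 and Col1a2. By this rule 1212 of the 10136 kept synovial barcodes were members, and 29563 barcodes were kept over the 4 libraries of the series. The members comprised 642 cells of TNF- synovium (wild-type littermates) and 570 cells of TNF+ synovium (TNF-transgenic mice).

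The series held 1 synovium and 1 lung library for each genotype, from female mice 4 months old. Each synovium library pooled tissue of 5 to 10 mice, released with type II collagenase, so the animals within a pool could not be told apart. With 1 library per genotype no test between genotypes was possible, and no difference reported here has a replicate check. Intervals are 95% exact intervals (Poisson for a level, binomial for a share or a ratio, and the Newcombe method for a difference of shares) and cover counting error only. TNF+ mice carry the transgene in their germline. Its human sequence was not in the mouse reference to which the reads were aligned, so no level of it is given.

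Endothelial cells form the inner wall of vessels and differ by vessel type. Capillary cells exchange nutrients and carry fatty acid transporters, arterial cells express Notch targets, and venules are the segment where leukocytes roll, arrest and pass into tissue. TNF binds receptors on endothelium and activates NF-kB, a transcription factor that induces selectins, immunoglobulin-type adhesion molecules and chemokines together with its own inhibitors. Endothelium under steady laminar flow expresses Klf2 and Thbd, which keep the vessel surface free of clots and of adhering leukocytes. In inflamed synovium vessels also sprout, under VEGF and angiopoietin signals.

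The 2 libraries differed in depth. Members held a median of 4638 UMIs in TNF- and 8624.5 UMIs in TNF+ synovium, whereas all kept barcodes held medians of 13057 and 10204 UMIs. The members' UMIs summed to 3299514 and 6618332. Levels are therefore given as CPM, UMIs of a gene per 1000000 UMIs of the members of a library, and shares of cells with a UMI are given after each cell was thinned to 1000 UMIs, which left out 17 TNF- and 8 TNF+ members. Where only a number of cells with a UMI is given, it was counted without thinning and follows depth as well. Median mitochondrial shares were 1.46% and 2.45%. Only 5 barcodes occurred in both synovium libraries, and 2 members carried such a barcode.

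More TNF+ than TNF- members held RNA of other cell types. Over 3 UMIs summed over 7 lists of other cell types (mural, myeloid, lymphocyte, muscle, Schwann, epithelium and erythroid) were found in 78 TNF- members, or 12.1% (95% interval 9.72 to 14.9%), and in 316 TNF+ members, or 55.4% (51.3 to 59.6%). These shares were not set at equal depth, and TNF+ members were deeper. Mural cells, the pericytes and smooth muscle cells that wrap vessels, were the main source by summed UMIs. All 9 mural genes listed were at least 2-fold higher in TNF+ members, against 7.18% of all genes tested, and their summed level was 507 CPM in TNF- against 1897 CPM in TNF+ cells. Rgs5, a regulator of G-protein signalling in pericytes, was at 338 CPM (318 to 358) in TNF- against 1315 CPM (1287 to 1343) in TNF+ members. At least 10 mural UMIs were found in 22 TNF- and 156 TNF+ members. Of the other lists, all 3 epithelial and 4 of 5 erythroid genes were at least 2-fold higher, with 64.8% or more of their TNF+ UMIs in 1 barcode, and all 5 muscle genes were lower. Of 10 myeloid genes 5 passed 50 UMIs, with 2 higher (Lyz2 and Itgam) and 1 lower. By number of members the order of sources differed. At unequal depth, a myeloid UMI was found in 137 TNF- (21.3%) and 387 TNF+ members (67.9%). A mural UMI was found in 131 and 377 members, and a muscle UMI in 234 and 136. None of 6 lymphocyte genes passed, and 1 of 4 Schwann cell genes was higher. Of 8 fibroblast genes, 7 passed and 4 were lower, in cells that the rule limited in collagen. The part of these cells in the differences below was not tested, but ratios without them are given further on.

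Endothelial cells made up 9.67% (8.97 to 10.4%) of kept TNF- barcodes and 16.3% (15.1 to 17.6%) of kept TNF+ barcodes, a difference of 6.62 percentage points (5.23 to 8.06). With members limited to cells with no Col1a1 or Col1a2 UMI the difference was 3.34 points (2.15 to 4.57). Enzymatic release and capture of each cell type can set such shares, and their part was not tested. At the edge of the rule, 11 TNF- and 7 TNF+ members had exactly 4 endothelial UMIs, and 8 TNF- and 12 TNF+ barcodes missed it with 3. The collagen limit admitted 1 TNF- and 6 TNF+ members at 4 or 5 UMIs and left out 3 and 0 barcodes at 6 or 7. Exactly 1 Ptprc UMI kept 14 barcodes of each library out.

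The members carried the genes that define endothelium, and the rule had used some of them. Pecam1, the platelet-endothelial adhesion molecule, stood at 1094 CPM in TNF- against 1201 CPM in TNF+ cells, and Cdh5, the cadherin of endothelial junctions, at 1262 and 1162 CPM. Neither was detected in the leukocyte or fibroblast reference cells, which the choice of those cells fixed. Genes outside the rule marked the same cells. After thinning, Egfl7, a protein secreted by endothelium, was found in 47.4% (43.4 to 51.4%) of TNF- against 40.0% (36.0 to 44.2%) of TNF+ members, against 0% in leukocytes and 0.108% or less in fibroblasts of both libraries. Without thinning the shares were 85.8% and 90.5%, the opposite order, with depth not equalised. Cldn5, the claudin of endothelial tight junctions, was found in 30.2% (26.7 to 34.0%) and 44.1% (40.0 to 48.3%) of thinned members, and Emcn, a sialomucin of capillaries and veins, in 30.6% (27.0 to 34.3%) and 22.8% (19.4 to 26.5%). None of 17 other endothelial genes was 2-fold different between the libraries, with a median log2 ratio of -0.36.

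**Figure D1:**
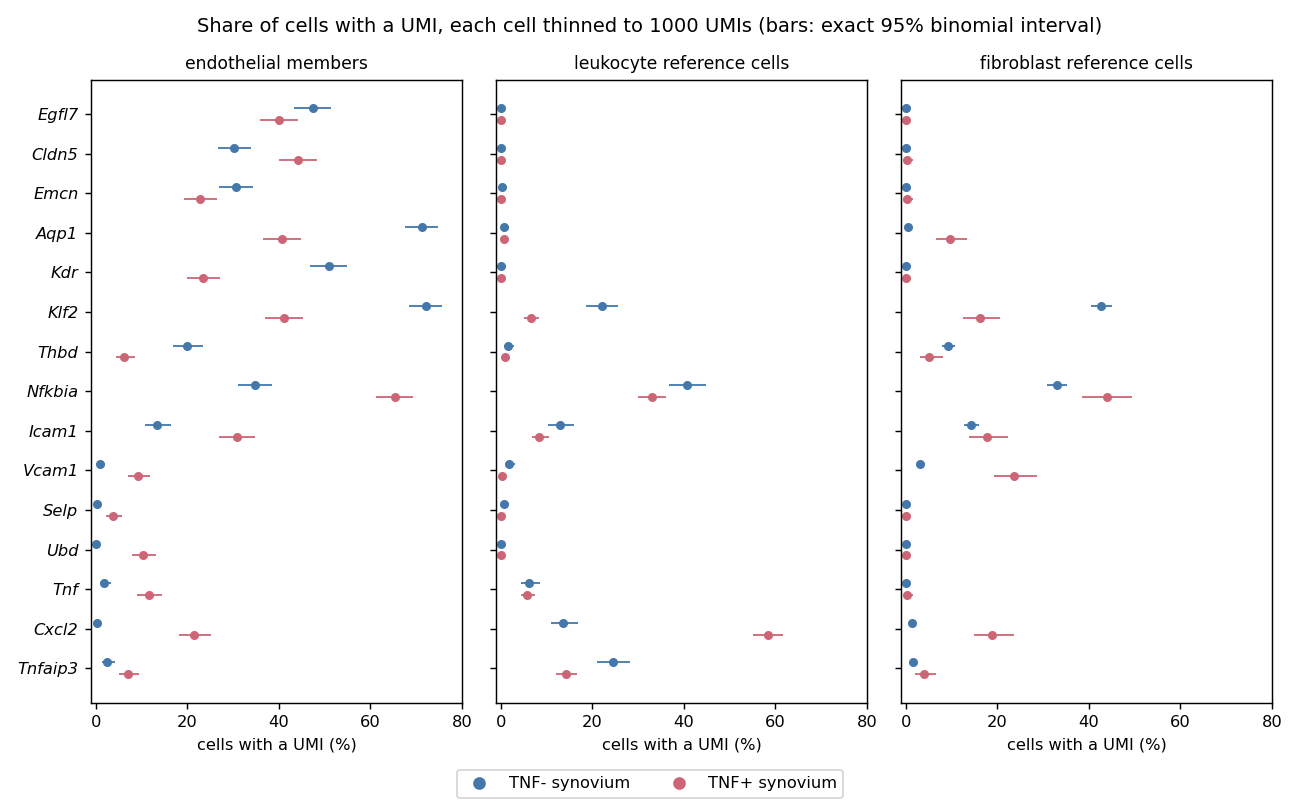
Share of cells with at least 1 UMI of each gene after every cell was thinned to 1000 UMIs, in members of both synovium libraries, with exact binomial 95% intervals, beside the shares in leukocyte and fibroblast reference cells. Klf2 and Aqp1 were found in 72.2% and 71.4% of TNF- members but in 41.1% and 40.7% of TNF+ members, whereas Ubd was found in 0% and 10.3%.

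Over all 10270 genes with at least 50 UMIs summed over both libraries' members, 737 (7.18%) were at least 2-fold higher and 737 (7.18%) at least 2-fold lower in TNF+ than in TNF- cells. These shares are the background for each list below. The median log2 ratio, TNF+ over TNF-, was -0.04. When Cmss1, Malat1, Gm42418, AY036118 and mitochondrial genes were taken out of the totals, the split became 621 higher and 956 lower. With median-of-ratios scaling it was 837 higher and 598 lower. More than 50% of the UMIs came from 1 barcode for 25 of the higher and 20 of the lower genes.

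**Figure D2:**
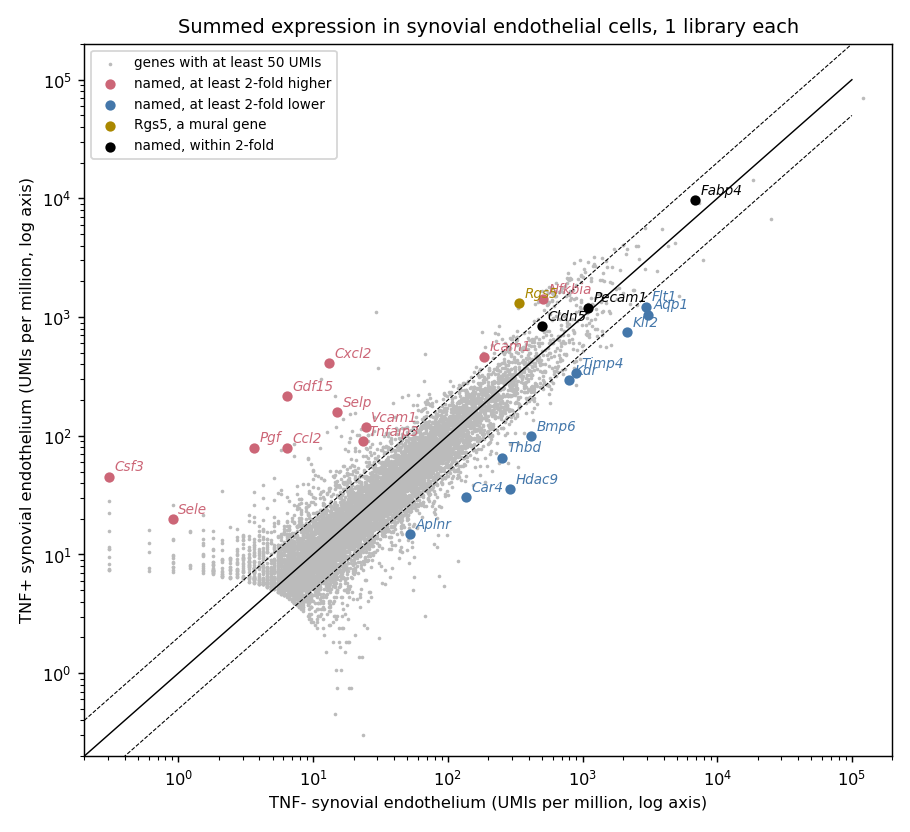
Level of each gene in TNF- (x axis) and TNF+ (y axis) synovial endothelial members, in CPM on log axes, 1 point per gene with at least 50 UMIs in all and at least 1 in TNF- cells, with lines at equal level and at 2-fold. Selp, Cxcl2, Pgf and Gdf15 lie above the 2-fold line, and Klf2, Kdr, Aqp1 and Hdac9 below it.

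Part of the lower side was shared with other cells of the same libraries, and part of the higher side with fibroblasts. Leukocyte reference cells (579 TNF- and 914 TNF+) and fibroblast reference cells (1853 and 334) were set beside the members. The genes at least 2-fold lower in endothelium had median log2 ratios of -0.61 in leukocytes and -1.01 in fibroblasts, against -0.05 and -0.18 over all genes tested. The genes at least 2-fold higher had medians of 0.01 and 0.45. Gm42418, a transcript that overlaps ribosomal RNA sequence, took 121896 CPM of TNF- and 70376 CPM of TNF+ members. Cmss1 was at 25259 and 6732 CPM, with log2 ratios of -1.91 in endothelium, -1.38 in leukocytes and -2.19 in fibroblasts. The gene bodies of higher genes spanned a median of 15.2 kb and those of lower genes 41.9 kb, against 26.9 kb over all. Levels or ratios in the reference cells are therefore given beside several of the higher and lower genes.

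**Figure D3:**
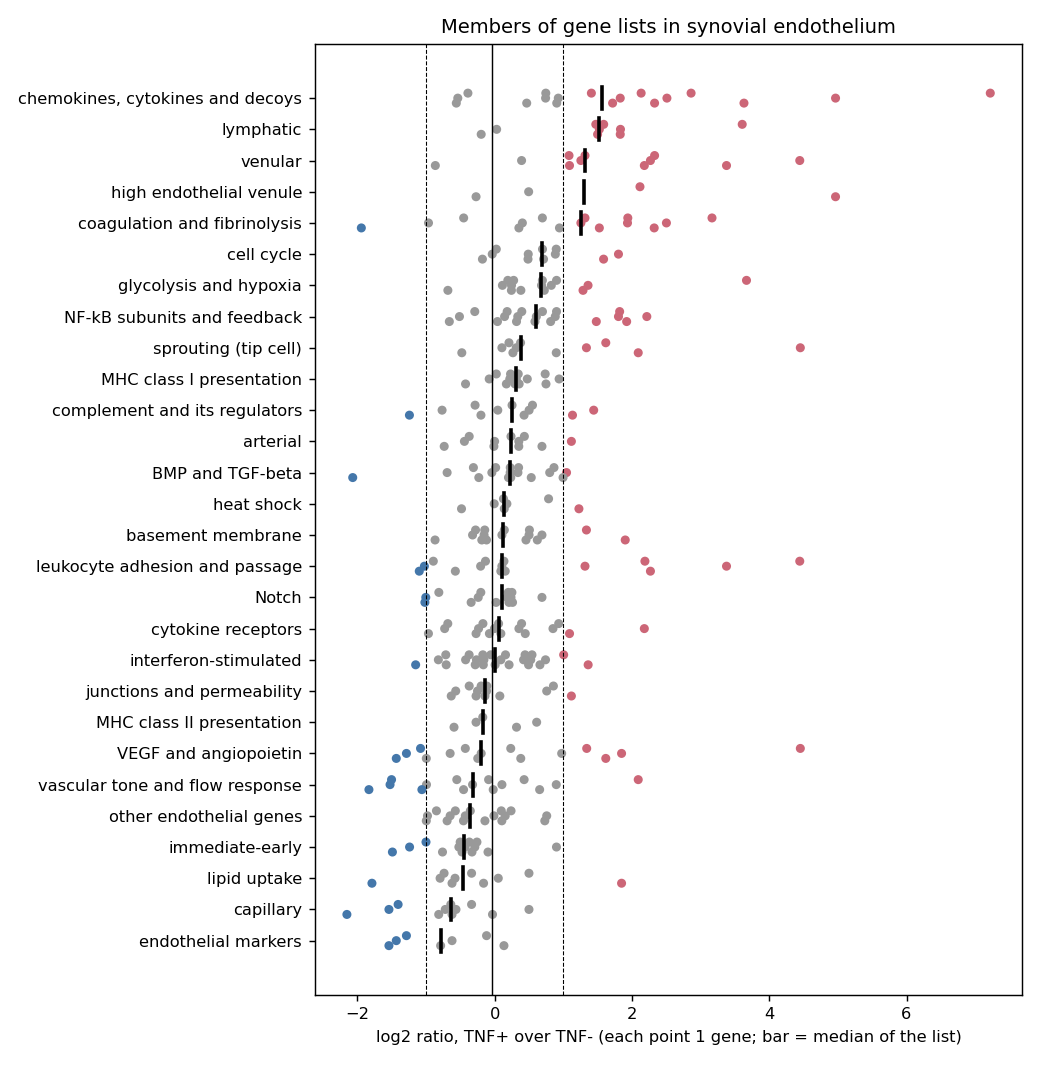
Log2 ratio, TNF+ over TNF-, of each gene of the lists in synovial endothelial members, 1 point per gene with at least 50 UMIs, with a bar at the median of each list, a solid line at the median of all genes tested (-0.04) and dashed lines at 2-fold. The chemokine (1.56), lymphatic (1.52) and venular (1.32) lists have their medians above the 2-fold line, and the capillary list has its median at -0.64.

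Most genes of the venular list were higher in TNF+ endothelium. Of 11 venular genes listed, all passed the minimum of 50 UMIs, 9 were at least 2-fold higher and none lower, with a median log2 ratio of 1.32. Selp (chr1:164115264-164150026) encodes P-selectin, on which leukocytes roll. Its level was 15.2 CPM (11.2 to 20) in TNF- against 157 CPM (148 to 167) in TNF+ members, a log2 ratio of 3.38 (2.97 to 3.82). Few cells carried it, 7 in TNF- and 41 in TNF+ synovium, and 50% of the TNF- UMIs came from 1 barcode. Without the highest barcode of each library the log2 ratio was 4.16, and without members of at least 10 mural UMIs it was 2.59. Sele, its neighbour at chr1:164048234-164057677, encodes E-selectin, which is made only on activated endothelium. It had 3 UMIs in 1 TNF- cell and 131 UMIs in 24 TNF+ cells, a log2 ratio of 4.44 (2.87 to 6.74). Selp and Sele were at or below 6.55 CPM in the leukocyte and fibroblast reference cells of both libraries.

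The ligands for firm arrest were spread over more cells than the selectins. Vcam1 (chr3:116109949-116129688), the ligand of leukocyte integrin VLA-4, was at 24.5 CPM (19.5 to 30.5) in 21 TNF- cells and 118 CPM (110 to 127) in 219 TNF+ cells, a log2 ratio of 2.27 (1.94 to 2.62). In fibroblasts Vcam1 was also higher, at 35.2 and 427 CPM, while in leukocytes it was lower, at 19.6 and 2.64 CPM. The ratio thus differed between cell types of the same libraries. Icam1 (chr9:21015985-21028817), the ligand of beta-2 integrins, was at 187 CPM (172 to 202) and 465 CPM (448 to 481), a log2 ratio of 1.32 (1.19 to 1.44). Its thinned share was 13.4% (10.9 to 16.4%) of TNF- against 30.8% (27.0 to 34.8%) of TNF+ members, so the intervals did not overlap. In leukocytes Icam1 was at 185 and 98.3 CPM and in fibroblasts at 175 and 224 CPM. Across the 14 other ways of selecting cells, scaling or counting, its log2 ratio stayed between 1.16 and 1.44.

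Other venular genes showed the same order with fewer molecules. Ackr1, the Duffy receptor that carries chemokines across venules, was at 7.58 CPM in 5 TNF- cells and 38.1 CPM in 17 TNF+ cells, a log2 ratio of 2.33 (1.73 to 2.98). Since 1 barcode held 76.0% of its 25 TNF- UMIs, the ratio without the highest barcodes was 4.13, and without members of at least 10 mural UMIs it was 1.26. Vwf, the platelet-binding factor stored in endothelial granules, was at 93.3 and 223 CPM (log2 ratio 1.26), and Csf2rb, the shared receptor subunit for GM-CSF and IL-3, at 10.3 and 46.7 CPM (2.18). Ephb4, a venous receptor of ephrin-B2, gave the lowest ratio of the list, -0.87.

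Of 16 genes for leukocyte adhesion and passage, 15 passed the minimum, 5 were at least 2-fold higher (Icam1, Alcam, Vcam1, Selp and Sele) and 2 lower, with a median log2 ratio of 0.10. The genes that form the junctions through which leukocytes pass were not among the higher ones. Jam3, a junctional adhesion molecule, was at 76.4 CPM in TNF- against 35.7 CPM in TNF+ members (log2 ratio -1.10), with -2.28 in leukocytes and -0.60 in fibroblasts. Podxl, a sialomucin of the luminal surface, was at 583 and 287 CPM (-1.02) and below 1 CPM in both kinds of reference cell. Of 8 genes of high endothelial venules, 4 passed. Enpp2, the lysophospholipase that makes lysophosphatidic acid, was at 10.0 and 43.4 CPM (log2 ratio 2.12), and Glycam1, a sulphated ligand of L-selectin, had 98.4% of its 188 TNF+ UMIs in 1 barcode.

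Chemokines were the functional list with the largest median. Of 22 chemokines, cytokines and decoy receptors listed, 18 passed, 10 were at least 2-fold higher and none was lower, with a median log2 ratio of 1.56. Cxcl2 (chr5:90903871-90905938), which draws neutrophils through CXCR2, was at 13.0 CPM (9.43 to 17.6) in 23 TNF- cells and 407 CPM (392 to 423) in 328 TNF+ cells, a log2 ratio of 4.97 (4.53 to 5.44). Cxcl1, its close relative, was at 67.3 and 489 CPM (2.86). Both were also higher in the other cells of the TNF+ library. Leukocytes held 782 and 8620 CPM of Cxcl2, and fibroblasts 22.6 and 851 CPM. After thinning, 21.5% (18.2 to 25.2%) of TNF+ members had a Cxcl2 UMI, against 58.4% of TNF+ leukocytes and 18.9% of TNF+ fibroblasts. A share at or near that of the fibroblasts could come from RNA free in the droplets, and how much did so was not tested.

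Ccl2, which draws monocytes, was at 6.36 CPM in TNF- against 78.9 CPM in TNF+ endothelium, a log2 ratio of 3.63 (3.00 to 4.34), and at 209 and 2591 CPM in fibroblasts. Between endothelium and fibroblasts, the fibroblasts therefore had the higher Ccl2 level in both libraries. Csf3, the granulocyte colony-stimulating factor, had 1 UMI in TNF- and 299 UMIs in 40 TNF+ endothelial cells, a log2 ratio of 7.22 (4.73 to 12.53). A single barcode held 29.8% of the TNF+ UMIs. Csf3 was at 32.6 CPM in TNF+ leukocytes and 0.464 CPM in TNF+ fibroblasts, against 45.2 CPM in TNF+ endothelium.

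Cxcl10 moved differently between cell types. This ligand of CXCR3 on T cells was at 54.9 CPM in TNF- against 180 CPM in TNF+ endothelium, a log2 ratio of 1.72 (1.49 to 1.95). It was at 108 and 10.3 CPM in leukocytes and at 91.1 and 28.9 CPM in fibroblasts, lower in TNF+ cells of both kinds. Cxcl9, another CXCR3 ligand, was at 140 and 194 CPM in endothelium (0.47). Cxcl12, the most abundant chemokine of the list in TNF- endothelium, was at 1599 and 1085 CPM (-0.56), and Ackr3, its decoy receptor, at 136 and 93.5 CPM (-0.54).

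The receptors of TNF differed little between the libraries. Tnfrsf1a was at 98.8 CPM (88.4 to 110) in TNF- against 103 CPM (95.2 to 111) in TNF+ members, a log2 ratio of 0.06 (-0.14 to 0.25). Tnfrsf1b was at 24.5 and 23.3 CPM (-0.08, -0.47 to 0.33). Both intervals reached across 0 and lay well inside a 2-fold difference. Of 17 cytokine receptors, 2 were at least 2-fold higher, Csf2rb and Ifngr2, and none lower.

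Nfkbia, Nfkbie, Tnfaip3, Tnip1 and Traf1, which regulate NF-kB signalling, were higher. Of 20 NF-kB subunits and feedback genes, all passed, 5 were at least 2-fold higher and none lower, with a median log2 ratio of 0.60. All 5 encode regulators rather than the DNA-binding subunits. Nfkbia (chr12:55489410-55492647), the inhibitor that holds NF-kB in the cytoplasm, was at 509 CPM (485 to 534) and 1420 CPM (1391 to 1448), a log2 ratio of 1.48 (1.41 to 1.56), between 1.32 and 1.55 across the 14 alternatives. Tnfaip3, the ubiquitin-editing enzyme A20, was at 23.6 and 89.6 CPM (1.92), and Tnip1, its partner, at 21.8 and 101 CPM (2.22). Nfkbie was at 5.46 and 19.0 CPM (1.80) and Traf1, an adaptor of TNF receptors, at 3.64 and 12.8 CPM (1.82). Nfkbiz, another member of the IkB family, was at 373 and 262 CPM (-0.51). For the subunits themselves, Nfkb1 had a log2 ratio of 0.88 and Relb of 0.59. Leukocytes did not share this order, since Nfkbia was at 675 and 628 CPM and Tnfaip3 at 296 and 151 CPM there, whereas fibroblasts gave 0.65 and 2.08.

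Tnf itself was counted in endothelial members. The mouse gene (chr17:35199381-35202007) had 62 UMIs in 47 TNF- cells and 1006 UMIs in 243 TNF+ cells, or 18.8 CPM (14.4 to 24.1) and 152 CPM (143 to 162), a log2 ratio of 3.02 (2.65 to 3.41). Leukocytes held 68.7 and 87.1 CPM and fibroblasts 0.957 and 1.39 CPM. After thinning, 1.92% (0.996 to 3.33%) of TNF- against 11.6% (9.04 to 14.5%) of TNF+ endothelial cells had a Tnf UMI, against 6.24% and 5.82% of leukocytes and 0.108% and 0.300% of fibroblasts. The endothelial share in the TNF+ library was thus above those of both kinds of reference cell. Without members that held over 3 UMIs of other cell types the log2 ratio was 1.90. Whether any of these UMIs came from the human transgene, aligned to the mouse gene, cannot be told apart in these counts.

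Ubd was the clearest case of a gene found in 1 library only. It encodes FAT10, a ubiquitin-like protein induced by TNF and interferon-gamma, at chr17:37193892-37196095. No UMI was counted in TNF- endothelium, which allows up to 3 UMIs, and 779 UMIs were counted in 199 TNF+ cells, 118 CPM (110 to 126). With 3 UMIs as floor for TNF- cells Ubd was 129-fold higher, a ratio set by the floor and not a lower limit. After thinning it was found in 0 of 625 TNF- cells, where the count of 0 sets a limit of 0.480%, and in 10.3% (7.93 to 13.1%) of TNF+ cells. No thinned leukocyte or fibroblast of either library had a Ubd UMI, and without thinning Ubd was at 1.51 CPM or less in all of them. Gdf15, a stress-induced cytokine of the TGF-beta family, was at 6.36 CPM in 13 TNF- cells and 216 CPM in 141 TNF+ cells, a log2 ratio of 5.08 (4.47 to 5.78), and at 4.74 and 104 CPM in leukocytes. Gadd45b, an NF-kB target that limits cell death, was at 180 and 742 CPM (2.04), while it was lower in TNF+ leukocytes (-1.98) and fibroblasts (-0.42).

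Promoter sequence is shown for 3 of the higher genes, taken from the adhesion, chemokine and NF-kB lists. For each gene the 150 bases before its RefSeq start (GRCm38.p6) are printed 5′ to 3′ on the gene's strand. Capitals mark matches of a 10-base NF-kB pattern (GGG, then any 3 bases, then TTCC) on either strand, and overlapping matches are merged. Selp, on the plus strand at chr1:164115114-164115263, had no match.
Selp: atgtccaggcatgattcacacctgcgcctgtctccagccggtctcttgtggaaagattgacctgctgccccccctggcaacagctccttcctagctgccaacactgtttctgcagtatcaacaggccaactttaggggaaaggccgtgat
Cxcl2, on the plus strand at chr5:90903749-90903898, had 3 matches, of which the first began 97 bases and the last 78 bases before the start.
Cxcl2: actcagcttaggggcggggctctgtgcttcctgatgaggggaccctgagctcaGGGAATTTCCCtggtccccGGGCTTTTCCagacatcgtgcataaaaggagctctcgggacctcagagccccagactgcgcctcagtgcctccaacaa
Nfkbia, on the minus strand at chr12:55492648-55492797, had 1 match, 29 bases before the start.
Nfkbia: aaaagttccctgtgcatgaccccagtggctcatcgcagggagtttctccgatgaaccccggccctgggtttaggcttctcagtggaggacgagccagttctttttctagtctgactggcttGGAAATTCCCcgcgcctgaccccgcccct
The pattern occurred in this window of 3.05% of 32851 mouse promoters and of 3.31% of the 8091 promoters of tested genes that were in the table. Its share was 6.12% of 539 promoters of genes at least 2-fold higher and 2.58% of 542 promoters of genes at least 2-fold lower. The pattern was chosen after several had been looked at, so these shares are descriptions and not a test. A match is a run of letters and not a measured binding site.

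Pgf, Angpt2, Vegfa and Angptl4 were higher and Kdr, Flt1 and Nrp1 lower in TNF+ endothelium. Of 16 VEGF and angiopoietin genes, 15 passed, 4 were at least 2-fold higher and 3 lower, with a median log2 ratio of -0.20. The higher ones all encode secreted proteins. Pgf, placental growth factor, which binds FLT1, was at 3.64 CPM in 5 TNF- cells and 79.6 CPM in 90 TNF+ cells, a log2 ratio of 4.45 (3.64 to 5.41). Its TNF- level rested on 12 UMIs. Angpt2, which antagonises TIE2 and destabilises vessels, was at 34.6 CPM (28.5 to 41.5) and 106 CPM (98.4 to 114), a log2 ratio of 1.62 (1.33 to 1.92). Vegfa was at 27.0 and 68.3 CPM (1.34) and Angptl4 at 8.18 and 29.5 CPM (1.85).

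The lower ones were all receptors. Kdr (chr5:75932827-75978458), the main signalling receptor of VEGF, was at 794 CPM (764 to 825) and 294 CPM (281 to 307), a log2 ratio of -1.43. Flt1, the decoy receptor, was at 2978 CPM (2919 to 3037) and 1221 CPM (1194 to 1248), a log2 ratio of -1.29. Since the rule summed Kdr and Flt1, their levels are descriptions of the members it chose. Nrp1, a co-receptor that the rule did not use, was at 899 CPM (867 to 932) and 425 CPM (409 to 441), a log2 ratio of -1.08 (-1.16 to -1.01), with -0.55 in leukocytes and 0.39 in fibroblasts. Tek, the angiopoietin receptor TIE2, was just short of 2-fold lower at 290 and 146 CPM.

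Of 12 genes of sprouting tip cells, 11 passed, 4 were at least 2-fold higher and none lower, with a median log2 ratio of 0.38. Apln, the ligand of the apelin receptor, was at 6.67 CPM in 7 TNF- cells and 28.4 CPM in 57 TNF+ cells (2.09), and Nid2, a basement membrane protein, at 28.2 and 71.2 CPM (1.34). Without members that held over 3 UMIs of other cell types the Apln ratio was 0.65. Esm1, a tip cell proteoglycan, was at 28.8 and 34.6 CPM, a log2 ratio of 0.27 (-0.09 to 0.63). Dll4, the tip cell ligand of Notch, was at 160 and 185 CPM (0.21).

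Among genes of vascular tone and flow response, Klf2, Aplnr, Ramp3 and Ptgs1 were at least 2-fold lower. Of 16 such genes, 15 passed, 4 were at least 2-fold lower and 1 higher, with a median log2 ratio of -0.32. Klf2 (chr8:72319033-72321656), the transcription factor of flow-exposed endothelium, was at 2149 CPM (2099 to 2199) and 747 CPM (726 to 768), a log2 ratio of -1.52 (-1.58 to -1.47). Its thinned share was 72.2% (68.5 to 75.6%) of TNF- against 41.1% (37.0 to 45.3%) of TNF+ members. Klf2 was also lower in TNF+ leukocytes (304 and 64.2 CPM, log2 ratio -2.25) and fibroblasts (878 and 188 CPM, -2.23), so its lower level was not particular to endothelium. The same held for Klf4, at 1400 and 703 CPM (-0.99) in endothelium, -1.14 in leukocytes and -1.24 in fibroblasts. Nos3, the endothelial nitric oxide synthase, was at 164 and 112 CPM (-0.55), and Edn1, the constrictor endothelin-1, at 67.3 and 106 CPM (0.65). Aplnr, the apelin receptor, was at 52.7 CPM (45.2 to 61.2) and 14.8 CPM (12 to 18.0), a log2 ratio of -1.83, opposite to its ligand.

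**Figure D4:**
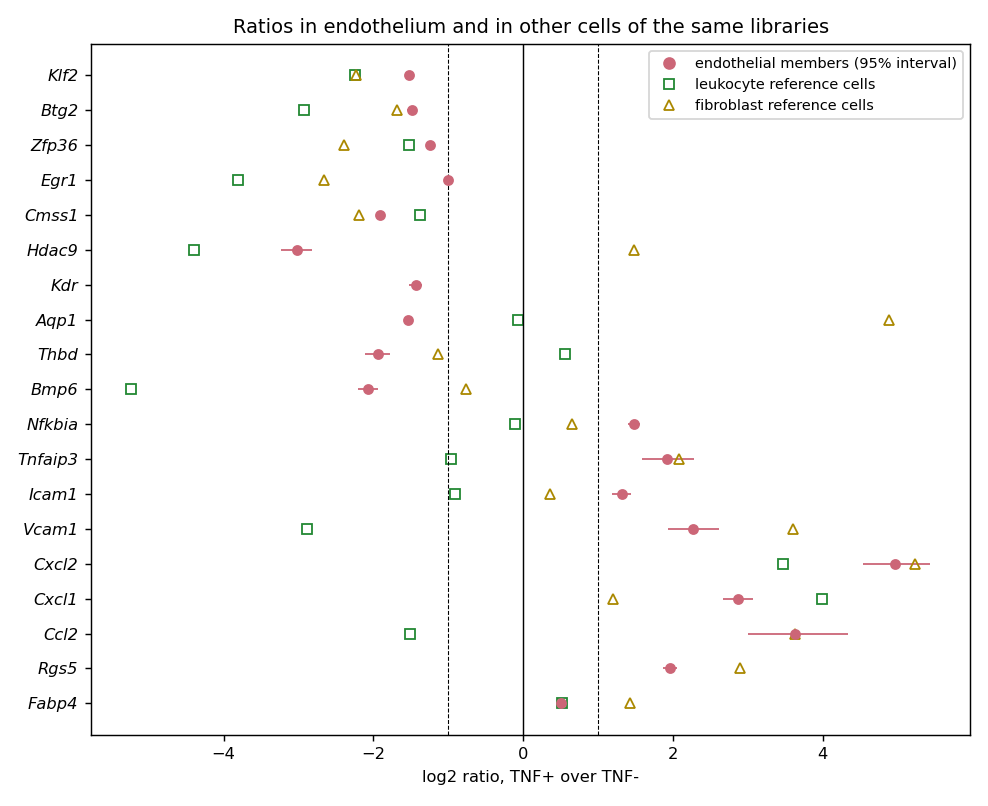
Log2 ratio, TNF+ over TNF-, of named genes in synovial endothelial members beside the same ratio in leukocyte and fibroblast reference cells of the same libraries. Bars are 95% intervals for endothelium, and the dashed lines mark 2-fold. Klf2 was lower in all 3 cell groups (-1.52, -2.25 and -2.23), whereas Icam1 was higher in endothelium (1.32) and lower in leukocytes (-0.91).

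Of 15 coagulation and fibrinolysis genes, all passed, 8 were at least 2-fold higher and 1 lower, with a median log2 ratio of 1.26. The lower one was Thbd (chr2:148404466-148408188), thrombomodulin, which turns thrombin into an anticoagulant enzyme. Its level was 252 CPM (235 to 269) in TNF- against 65.4 CPM (59.4 to 71.9) in TNF+ members, a log2 ratio of -1.94 (-2.11 to -1.77). The ratio was 0.56 in leukocytes and -1.14 in fibroblasts, and it stayed between -2.06 and -1.66 in endothelium across the 14 alternatives. The higher ones included receptors and a fibrinolytic enzyme. F2r, the thrombin receptor PAR1, was at 19.4 CPM (14.9 to 24.8) in 50 TNF- cells and 110 CPM (102 to 118) in 288 TNF+ cells, a log2 ratio of 2.50 (2.13 to 2.89), with -1.41 in leukocytes and 0.05 in fibroblasts. Plat, the tissue plasminogen activator, was at 38.2 and 95 CPM (1.32). Procr, the receptor of protein C, was at 20.6 and 79.0 CPM (1.94). F3, tissue factor, had 84.4% of its TNF+ UMIs in 1 barcode.

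Capillary genes were lower or little different. Of 11 capillary genes, all passed, 3 were at least 2-fold lower and none higher, with a median log2 ratio of -0.64. Aqp1 (chr6:55336432-55348555), the water channel, was at 3056 CPM (2996 to 3116) and 1050 CPM (1026 to 1075), a log2 ratio of -1.54 (-1.59 to -1.50). Its thinned share was 71.4% (67.6 to 74.9%) and 40.7% (36.7 to 44.9%). Fibroblasts went the other way, with 3.99 and 117 CPM of Aqp1. Car4, a surface carbonic anhydrase, was at 136 and 30.5 CPM (-2.15), and Timp4, a metalloproteinase inhibitor, at 898 and 338 CPM (-1.41). Both were below 1 CPM in the reference cells. Gpihbp1, which anchors lipoprotein lipase in capillaries, was at 1085 and 705 CPM (-0.62). Fabp4, the fatty acid carrier and the most abundant gene of the list, was at 6833 and 9658 CPM (0.50), and this difference turned to -0.15 when members with over 3 UMIs of other cell types were left out.

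Of 12 genes of lipid uptake, 10 passed, 1 was at least 2-fold lower and 1 higher. Scarb1, the HDL receptor, was at 366 CPM (346 to 388) and 106 CPM (98.4 to 114), a log2 ratio of -1.79, with -0.63 in leukocytes and 0.82 in fibroblasts. Cd36, the fatty acid translocase, was at 1806 and 1430 CPM (-0.34).

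Arterial and Notch genes differed little. Of 11 arterial genes, 1 was at least 2-fold higher and none lower, with a median log2 ratio of 0.24. The higher one was Gja4, the arterial connexin 37, at 33.6 and 73.0 CPM (1.12), between 1.0 and 1.93 across the 14 alternatives. Of 15 Notch genes, 14 passed and 2 were at least 2-fold lower, with a median of 0.10. Jag2, a ligand, was at 138 and 68.0 CPM (-1.02), and Lfng, a glycosyltransferase that tunes the receptor, at 14.9 and 7.40 CPM (-1.0). The shares of these lists past 2-fold were within 1 or 2 genes of the background of 7.18% in each direction.

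Of 18 BMP and TGF-beta genes, 17 passed, with 1 at least 2-fold lower and 1 higher. Bmp6, a ligand that endothelium makes to regulate iron and vessel quiescence, was at 417 CPM (395 to 440) in 387 TNF- cells and 99.4 CPM (92.0 to 107) in 235 TNF+ cells, a log2 ratio of -2.07 (-2.20 to -1.93). It was also lower in TNF+ leukocytes (12.4 and 0.330 CPM) and fibroblasts (30.4 and 18.0 CPM). Bmp4 was at 38.2 and 78.9 CPM (1.05). Of 16 basement membrane genes, 2 were at least 2-fold higher and none lower. Col18a1, the precursor of endostatin, was at 27.6 and 103 CPM (1.90), and Col4a1, the main network collagen, at 1086 and 975 CPM (-0.16). Of the Col18a1 UMIs, 15 in TNF- and 325 in TNF+ synovium lay in a lymphatic-like cluster of 13 and 31 members, described below. Of 15 junction and permeability genes, 13 passed and 1, Gja4, was past 2-fold.

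Antigen presentation and interferon genes showed no common shift of 2-fold. None of 14 MHC class I genes and none of the 5 class II genes that passed was past 2-fold, with medians of 0.31 and -0.17. H2-K1 was at 1151 and 1460 CPM (0.34). Of 26 interferon-stimulated genes, 25 passed, 2 were higher and 1 lower, with a median of 0.01. Ifi47, a GTPase induced by interferon-gamma, was at 45.5 and 117 CPM (1.36), and Ifitm3 at 1485 and 2980 CPM (1.0). Usp18, an inhibitor of interferon signalling, was at 43.6 and 19.6 CPM (-1.15), and was also lower in TNF+ leukocytes and fibroblasts.

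Most complement genes that passed the minimum were within 2-fold in endothelium. Of 16 complement genes and regulators, 11 passed, 2 were at least 2-fold higher, 1 lower and 8 neither. Over all genes tested, 7.18% were past 2-fold in each direction. C3, the central component, was at 28.8 CPM (23.3 to 35.2) and 16.9 CPM (13.9 to 20.4), a log2 ratio of -0.77, in cells of libraries whose fibroblasts held 1347 and 2693 CPM. Fibroblasts thus carried far more C3 than endothelium, and the part of free fibroblast RNA in the endothelial level was not tested. Cfb, a protease of the alternative pathway, was at 6.06 and 16.5 CPM (1.44). Among membrane regulators, Cd55 was at 12.1 and 26.6 CPM (1.13) and Cd46 at 27.9 and 11.8 CPM (-1.24).

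Of 15 glycolysis and hypoxia genes, 3 were at least 2-fold higher and none lower, with a median log2 ratio of 0.68. Egln3, a prolyl hydroxylase that hypoxia induces, was at 1.21 CPM in 4 TNF- cells and 15.4 CPM in 70 TNF+ cells (3.67, interval 2.27 to 5.57), and was also higher in leukocytes and fibroblasts (2.70 and 1.99). Pgk1 and Bnip3 had log2 ratios of 1.29 and 1.36. Of 18 cell cycle genes, 11 passed, and Stmn1 (26.7 and 80.1 CPM, 1.59) and Mcm5 (2.42 and 8.46 CPM, 1.80) were past 2-fold. Mki67, which marks dividing cells, was counted in 5 TNF- and 18 TNF+ members, not at equal depth.

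Dissociation of tissue induces immediate-early genes, and they were abundant in both libraries. Of 14 such genes, 3 were at least 2-fold lower and none higher, with a median log2 ratio of -0.45. Btg2 was at 1626 and 579 CPM (-1.49), with -2.93 in leukocytes and -1.68 in fibroblasts. Fos was at 1995 and 1586 CPM (-0.33), with -1.57 and -3.03 in the reference cells. Of 7 heat shock genes, Hsp90aa1 was past 2-fold, at 589 and 1380 CPM (1.23), with 0.10 in leukocytes and -0.12 in fibroblasts.

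Lymphatic endothelium, which drains fluid and leukocytes from the joint and depends on the transcription factor PROX1, was a small part of the members. Cells with at least 3 UMIs over Prox1, Flt4, Mmrn1, Ccl21a and Lyve1, at least 1 of them Prox1, were 14 of 642 TNF- members, or 2.18% (1.20 to 3.63%), and 33 of 570 TNF+ members, or 5.79% (4.02 to 8.03%). The difference was 3.61 percentage points (1.42 to 6.0). Of these cells 11 and 30 held at least 6 such UMIs. The share was not set at equal depth, and their median UMIs were 7104.5 and 12811. With members limited to cells without any Col1a1 or Col1a2 UMI the difference was 1.35 points (-1.04 to 4.06), an interval that reached across 0. It was 2.06 points (0.017 to 4.34) with cells limited to 200 to 5000 detected genes.

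Over all members, 7 of 9 lymphatic genes were at least 2-fold higher, with a median log2 ratio of 1.52, and the Ccl21a UMIs of TNF+ members lay in 32 cells. Within the lymphatic cells alone the identity genes differed little. Ccl21a, the chemokine that guides dendritic cells into lymphatics, was at 8934 and 9628 CPM there (log2 ratio 0.11), Lyve1, the hyaluronan receptor, at 1048 and 1189 CPM (0.18), and Prox1 at 605 and 553 CPM (-0.13). These 3 genes were among those that chose the lymphatic cells, so their levels there are descriptions. Without those cells Ccl21a had a log2 ratio of 1.29 over the few UMIs left. Nts, neurotensin, differed within them, at 366 CPM and 3002 CPM (3.04, interval 2.60 to 3.51). Klf2 was lower within lymphatic cells, at 911 and 268 CPM (-1.76), and Nfkbia higher, at 613 and 1494 CPM (1.28). Pgf had 0 and 204 UMIs and Csf3 0 and 122 UMIs in them, against 527 and 299 UMIs over all TNF+ members. Icam1 was at 375 and 306 CPM there (-0.29, interval -0.76 to 0.21).

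Clustering of the members, with each gene centred within its library, gave 8 clusters. They were named only from fixed markers: cluster 2 was capillary-like, cluster 3 arterial-like, cluster 6 venular-like and cluster 8 lymphatic-like. Clusters 1 and 4 had no set of markers that named them, cluster 5 carried 9 mural genes, and cluster 7 was shallow, so these 4 stayed unnamed. Cells in clusters 1 to 8 numbered 212, 205, 66, 83, 11, 27, 25 and 13 in TNF- and 140, 99, 98, 65, 77, 33, 27 and 31 in TNF+ synovium. Since the genes that define them also differed between libraries, these sizes are not compared. Without centring, 3 of 10 clusters, with 699 cells, drew over 90% of their cells from 1 library.

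**Figure D5:**
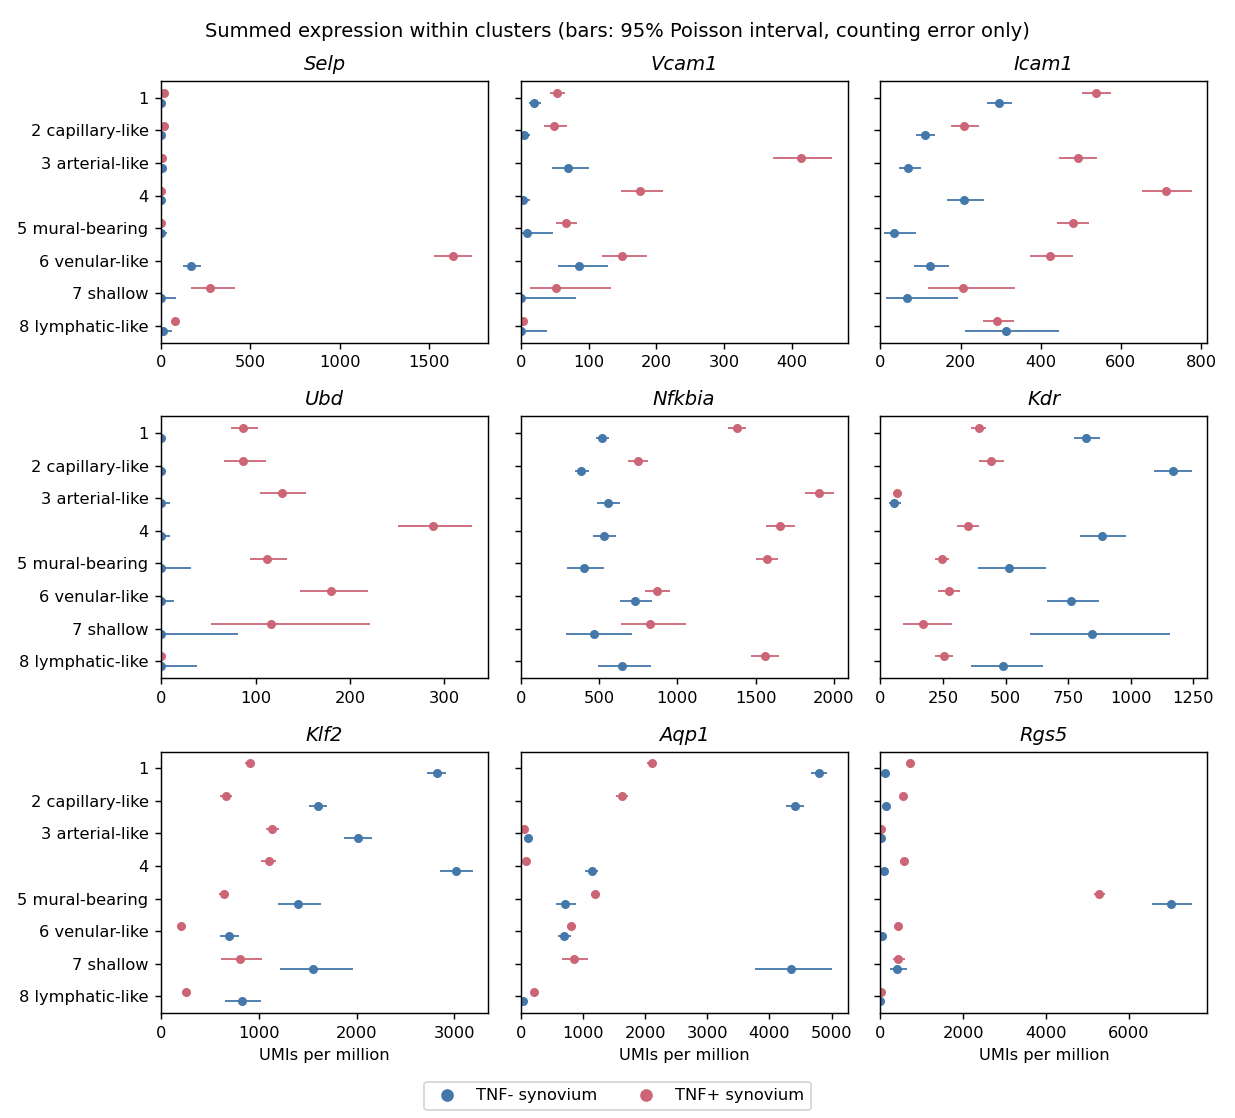
Level of 9 genes, in CPM on a linear axis from 0, within each of the 8 clusters of synovial endothelial members in TNF- and TNF+ synovium, with 95% Poisson intervals as bars. Klf2 was lower and Nfkbia higher in TNF+ cells of every cluster, Selp stood out in cluster 6 (1633 CPM in TNF+ cells), and Kdr was higher in TNF+ cells only in cluster 3, with overlapping intervals.

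Within the 4 clusters with at least 50 cells of each library, the shares of genes at least 2-fold higher and lower were 6.66% and 6.95% in cluster 1, 6.47% and 7.14% in cluster 2, 13.2% and 4.68% in cluster 3, and 11.6% and 9.75% in cluster 4. The named differences kept their direction with few exceptions. Klf2 was lower in all 8 clusters, from 2819 and 904 CPM in cluster 1 to 691 and 198 CPM in venular-like cluster 6, with log2 ratios between -1.80 and -0.82. Nfkbia was higher in all 8, with the smallest ratio, 0.26 (0.02 to 0.50), in cluster 6. Icam1 was higher in clusters 1 to 7 and not in lymphatic-like cluster 8 (-0.10, interval -0.65 to 0.50). In cluster 7, with 3 and 16 Icam1 UMIs, the interval of 1.64 reached across 0 (-0.17 to 4.06). Thbd was lower in all 8, from 180 and 14.5 CPM in capillary-like cluster 2 (-3.64) to 94.0 and 57.9 CPM in cluster 5, where the interval of -0.70 reached across 0.

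Most Selp and Sele UMIs lay in venular-like cluster 6, which Selp helped to define, whereas Vcam1 was spread over several clusters. In cluster 6 Selp was at 166 CPM (46 UMIs) in TNF- against 1633 CPM (916 UMIs) in TNF+ cells, a log2 ratio of 3.30 (2.87 to 3.76), and that cluster held 916 of the 1042 TNF+ UMIs. Sele had 3 and 109 UMIs there, and Ackr1 24 and 243. Vcam1 had its highest TNF+ level in arterial-like cluster 3, at 69.9 CPM in TNF- against 414 CPM in TNF+ cells (2.56, interval 2.01 to 3.18). In cluster 4 it had 1 UMI in TNF- and 130 UMIs in TNF+ cells, and in cluster 6 it was at 86.4 and 150 CPM (0.79, interval 0.12 to 1.51). Selp had 1 and 2 UMIs in cluster 3 and none in cluster 4.

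Ubd had no UMI in any TNF- cluster. Its TNF+ level was highest in cluster 4, at 288 CPM (213 UMIs), and lay between 86.7 and 180 CPM in clusters 1, 2, 3, 5, 6 and 7. No Ubd UMI was counted in the 31 TNF+ cells of lymphatic-like cluster 8. Tnf was at 239 CPM in cluster 1 and 345 CPM in cluster 4 of TNF+ synovium, and at 12.5 CPM in cluster 6. Kdr was lower in 7 clusters and at 52.4 and 64.5 CPM in arterial-like cluster 3, where it was scarce. Aqp1 was lower in clusters 1 to 4 and 7, with log2 ratios between -3.84 and -1.09. It was higher in cluster 5 (0.73) and cluster 8 (2.79, from 3 UMIs in TNF- cells), and in cluster 6 its interval reached across 0. Fabp4 was higher in clusters 1 to 6, with log2 ratios between 0.54 and 0.94, and at 10079 and 10116 CPM in cluster 7. In lymphatic-like cluster 8 it had 1 and 199 UMIs (4.64, interval 2.15 to 9.96). Rgs5 showed where mural RNA lay, with 104 and 722 CPM in cluster 1, 15 and 11.5 CPM in cluster 3, and 7021 and 5283 CPM in cluster 5.

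Leaving out members with RNA of other cell types moved the ratio of some genes by over 1.5 times without turning their direction. This filter was not set at equal depth and took out more of the deeper TNF+ members. Several of the genes, Ackr1 and Pgf among them, had few TNF- UMIs even before it, so their ratios rest on few molecules. When the 78 TNF- and 316 TNF+ members with over 3 such UMIs were left out, larger log2 ratios were found for Selp (5.45), Ackr1 (3.62), Csf2rb (2.82), Ccl2 (4.91), Gdf15 (6.07), Pgf (6.19), Col18a1 (3.25), Gja4 (1.93), Cfb (2.58) and Nts (5.29). Smaller ones were found for Sele (2.35), Csf3 (4.45), Procr (1.21) and Bmp4 (0.18). Lower genes lay further from 0, with Aqp1 at -2.37, Gpihbp1 at -1.43, Car4 at -2.76 and Btg2 at -2.10. Leaving out members with at least 10 mural UMIs gave 3.63 for Sele, 5.51 for Csf3 and -3.30 for Robo2. Without the highest barcode of each library, Csf3 was at 5.13, Pgf at 5.29, Cxcl2 at 5.57 and Apln at 2.69. These choices left the direction of each gene named in this paragraph in place.

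Without thinning, shares followed the depth of the cells as well. The unthinned shares of TNF- and TNF+ members were 54.7% and 82.8% for Cldn5, 68.5% and 70.2% for Emcn, 32.9% and 77.4% for Icam1 and 3.58% and 57.5% for Cxcl2. They were 7.32% and 42.6% for Tnf, 0% and 34.9% for Ubd, 91.0% and 82.6% for Klf2 and 79.9% and 61.6% for Aqp1. Emcn was thus the gene among these whose order turned.

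Beyond the lists, the genes with the largest ratios among those at least as high in endothelium as in both reference cell types were taken by a fixed rule. Among the 12 highest, Krt19, Ly6d, Krt8, Krt18 and Cldn4, genes of epithelium, had between 70.1% and 91.4% of their TNF+ UMIs in 1 barcode. Among the 12 lowest, 7 were genes of skeletal muscle (Myl1, Tnnc2, Acta1, Tnnt3, Tnni2, Ckm and Mylpf), with between 66.7% and 79.4% of their TNF- UMIs in 1 barcode. The other 5 lowest were spread over many cells. Hdac9, a class II histone deacetylase, was at 289 CPM (271 to 308) in 260 TNF- cells and 35.7 CPM (31.3 to 40.5) in 100 TNF+ cells, a log2 ratio of -3.02 (-3.23 to -2.81). It was also lower in leukocytes (132 and 6.26 CPM) and not in fibroblasts (2.84 and 7.88 CPM). Ntf3, neurotrophin-3, was at 83.6 and 11.6 CPM (-2.85), Ncald, a neuronal calcium sensor, at 98.8 and 14.7 CPM (-2.75), Robo2, a Slit receptor, at 79.4 and 12.2 CPM (-2.70), and Nfe2l3, a CNC-family transcription factor, at 51.2 and 8.46 CPM (-2.60). Ntf3 and Nfe2l3 were lower in fibroblasts as well, while Robo2 was higher there (2.50).

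Lung endothelium chosen by the same rule gave 2018 TNF- and 144 TNF+ cells, and 95.1% of the TNF+ lung members held over 3 UMIs of other cell types. Its values are therefore set beside those of synovium without a comparison of size. Selp was at 9.28 and 42.8 CPM (log2 ratio 2.21) and Vcam1 at 57.9 and 259 CPM (2.16) in lung, both higher as in synovium. Sele, at 96 and 7 UMIs in lung, had a log2 ratio of -0.89 (-2.24 to 0.21), against 4.44 in synovium. Ubd had 3 UMIs in TNF- and 151 UMIs in TNF+ lung endothelium (8.54, interval 6.97 to 10.83), and Ackr1 had 2 and 93 UMIs. Nfkbia and Tnfaip3 were higher (1.0 and 2.93), and Klf2, Kdr, Aqp1 and Thbd lower (-0.64, -0.62, -1.18 and -1.58). Hdac9 was at 197 and 34.8 CPM (-2.50), while Cmss1 was at 919 and 1214 CPM (0.40), opposite to synovium.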

How the data were processed

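Mice of both genotypes, 4 months old, gave 1 synovium and 1 lung library each, read by droplet 3′ single-cell sequencing. The deposited values were raw UMI counts, 1 per gene in each barcode, which the authors made with Cell Ranger 7.0.1 against the mm10 mouse reference, without normalization, and how multi-mapped reads were divided is not given in the sources used here. The 32285 gene rows were summed by symbol where symbols were shared. Barcodes were kept at 500 or more UMIs and 20% or less mitochondrial UMIs, with no doublet caller, and members were selected by the rule given above. Reference leukocytes had at least 2 Ptprc UMIs, no endothelial UMI and at most 5 Col1a1 and Col1a2 UMIs. Reference fibroblasts had at least 20 Col1a1 and Col1a2 UMIs, no Ptprc and no endothelial UMI.

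UMIs were summed over the members of each library, and a gene with at least 50 UMIs was called where its ratio was 2-fold or more, with 3 UMIs as floor for a count of 0. With 1 library per group there was no test. Named genes were those with the highest and lowest 3 ratios of each list, list members over 500 CPM, and the 12 highest and 12 lowest of all genes, of which 1 gene is not reported here. Tnf, Cmss1, Icam1, Cxcl1, Procr, Vwf, Cxcl10 and Gadd45b, along with other list members given as examples, were chosen after their values were seen. The members and lists were chosen with earlier results of these data known, and the promoter pattern after several had been looked at. Of 11 genes considered for printing, 8 were in the RefSeq table and 4 held the pattern. Gene positions were read from a GRCm38 annotation, which matched 32235 genes. Clustering used 1000 variable genes without those of the rule, 15 principal components, 15 neighbours and resolution 0.5 (leidenalg 0.10.2, scikit-learn 1.9.0). Shares used cells thinned to 1000 UMIs. The counting scripts were tested on simulated data. Python 3.11.15 with numpy 2.4.6, scipy 1.17.1 and pandas 2.3.3 was used.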

Additional observations from a re-analysis of the deposited data

Results flagged for a closer look

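Among named genes of the endothelial subtype and function lists, 5 with at least 50 UMIs in each tissue moved in opposite directions in synovial and lung endothelium. Each did so by at least 2-fold in both tissues. Genes of other cell types were not counted here, and some of them did the same. Rgs5, Krt8 and Hbb-bs, for example, were higher in TNF+ synovial members and lower in TNF+ lung members (log2 ratios in lung -2.71, -1.69 and -4.31). The difference between tissues was not tested, since each group was 1 library. Jam3 had a log2 ratio, TNF+ over TNF-, of -1.10 in synovium and 1.56 in lung, and Ramp3, a co-receptor of adrenomedullin and calcitonin peptides, of -1.50 and 1.01. Bmp4 was at 1.05 in synovium and -1.50 in lung. Vwf was at 1.26 and -3.04, and Lyve1 at 1.83 and -4.20. In TNF+ lung, 144 cells were members and 95.1% of them held over 3 UMIs of other cell types, and the part of those cells was not tested. The Lyve1 ratio in synovium was -0.74 without lymphatic members.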

How the results depend on the processing

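Over the cell filters, scalings and counting choices tried, 2382 of the ratios of named genes moved by less than their counting interval, 1264 moved beyond it, and 22 ratios of genes past 2-fold changed sign. Ratios of genes within 2-fold changed sign in 133 cases, Fabp4 among them. The counts of genes at least 2-fold higher and lower (737 each) were 286 and 255 with cells thinned to 1000 UMIs, 1157 and 1166 with a minimum of 20 UMIs, and 379 and 316 with a minimum of 200 UMIs. A minimum or thinning changes how many genes can be counted. With no Col1a1 or Col1a2 UMI allowed, the difference in endothelial share was 3.34 points and in lymphatic share 1.35 points (-1.04 to 4.06), and the cause was not tested. Limited to 200 to 5000 detected genes, reversed log2 ratios were -0.51 for Ccl21a, -0.20 for Hba-a2 and -0.12 for Lyve1. Without members holding over 3 UMIs of other cell types they were 2.04 for C1qb, -0.092 for F3, -1.35 for Hbb-bs, -1.35 for Hbb-bt and -0.033 for Myh11. Without lymphatic members they were -0.74 for Lyve1 and -0.56 for Nts. Thinned cells gave -0.43 for Ubash3a. Without the highest barcode of each gene, chosen after seeing the data, they were 1.32 for C1qb and -1.0 for Glycam1. Within clusters they were 0.34 for Ckm, -0.81 for Nts and -1.04 for Procr (cluster 1), -3.47 for Nts (cluster 2), -0.56 for Bmp4, -0.52 for Col18a1, 0.30 for Kdr and 0.10 for Timp4 (cluster 3), and 0.12 for Mylpf (cluster 4). Unthinned, the share of cells with Emcn was 1.64 points and with Egfl7 4.70 points higher in TNF+ members, opposite to the thinned shares. Taking Cmss1, Malat1, Gm42418, AY036118 and mitochondrial genes out of the totals and leaving out mural-bearing members were also chosen after seeing the data. No paired analysis was possible because each genotype had 1 library of each tissue.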
